A study of Mus musculus with 4 samples.

Results

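The genes described here encode the glycoproteins, laminins and proteoglycans of the extracellular matrix, followed in brown preadipocytes before and during adipogenesis. They are 52 named genes of the 22459 gene symbols that could be matched in the read tables, and each was represented by its RefSeq transcript with most reads over the 4 libraries. By role, 36 belong to the interstitial matrix, 11 to the basement membrane and 5 to the cell surface proteoglycans. Levels are given as RPKM, the reads on a transcript scaled to its length in kilobases and to the depth of the library. Genes that passed an RPKM of 1 with Ad-GFP on either day are called expressed, and 43 of the 52 did. Of these, 38 passed on both days, *Eln*, *Mfap4*, *Spon2* and *Ogn* passed at day 0 alone and *Sparcl1* passed at day 2 alone, so that a difference between the days in Ad-GFP cells was built into these last 5 genes. The threshold reads Ad-GFP cells alone, so it keeps genes that are high in them and leaves out genes that are high in Ad-Cre cells alone.

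All cells came from a population of *Mll3*-/- *Mll4* f/f brown preadipocytes, which was derived from E18.5 mouse embryos on a C57BL/6J background and immortalized with SV40T. Adenovirus carrying GFP (Ad-GFP) left the floxed *Mll4* alleles in place, and adenovirus carrying Cre (Ad-Cre) was used to delete *Mll4*, which encodes a methyltransferase for histone H3 lysine 4. Ad-GFP cells, which the sample labels call wild type, are therefore *Mll3*-/- by genotype, and Ad-Cre cells are *Mll3*-/- and labelled as deleted for *Mll4*. RNA was sequenced at day 0, which was 2 days after confluence, and at day 2 of induction with insulin, T3, indomethacin, dexamethasone and IBMX, with 1 library for each of the 4 conditions.

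Each condition rests on a single library, so no difference could be set against the spread of replicates and no p-value is given. Ratios are given on the log2 scale with an exact binomial 95% confidence interval of the ratio of reads, which covers counting error only and compares these libraries, not the conditions. Genes past 2.5-fold were called higher or lower. The cells are an immortalized line grown in a dish, so the matrix measured is what these cells transcribe, without the vessels and other cells of fat tissue.

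The extracellular matrix of fat has an interstitial part, in which collagens, fibronectin, elastic microfibrils and proteoglycans surround fibroblast-like precursors, and a basement membrane, a thin sheet of laminin, type IV collagen, nidogen and perlecan that encloses each fat cell. Laminins are trimers of an alpha, a beta and a gamma chain, and nidogens and perlecan tie their network to that of type IV collagen. Preadipocytes make a fibronectin-rich matrix, and adipogenesis is known for the replacement of this matrix by a basement membrane.

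Sequences are shown for the starts of 3 basement membrane genes because the laminin beta chains *Lamb1* and *Lamb2* differed in opposite directions between Ad-Cre and Ad-GFP cells at day 2, and *Nid1* differed in the direction of *Lamb1*. Each runs 5′ to 3′ on the strand of the gene from 250 bases before to 50 bases after the RefSeq start in GRCm38.p6, and capitals mark matches on either strand to the motifs searched. *Lamb1* is shown at chr12:31265043-31265342 (plus strand), *Lamb2* at chr9:108479612-108479911 (plus strand) and *Nid1* at chr13:13437352-13437651 (plus strand).
Lamb1: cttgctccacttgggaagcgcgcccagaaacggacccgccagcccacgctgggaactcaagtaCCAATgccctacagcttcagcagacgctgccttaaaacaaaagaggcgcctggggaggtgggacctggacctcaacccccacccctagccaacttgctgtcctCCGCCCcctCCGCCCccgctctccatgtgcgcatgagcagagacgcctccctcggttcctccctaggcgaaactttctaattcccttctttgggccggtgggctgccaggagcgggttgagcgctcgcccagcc
Lamb2: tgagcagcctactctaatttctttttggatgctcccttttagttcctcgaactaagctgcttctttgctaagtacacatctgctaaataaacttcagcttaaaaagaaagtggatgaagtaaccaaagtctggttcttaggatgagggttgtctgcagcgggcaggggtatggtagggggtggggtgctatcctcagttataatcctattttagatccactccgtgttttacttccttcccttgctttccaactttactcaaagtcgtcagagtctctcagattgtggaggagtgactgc
Nid1: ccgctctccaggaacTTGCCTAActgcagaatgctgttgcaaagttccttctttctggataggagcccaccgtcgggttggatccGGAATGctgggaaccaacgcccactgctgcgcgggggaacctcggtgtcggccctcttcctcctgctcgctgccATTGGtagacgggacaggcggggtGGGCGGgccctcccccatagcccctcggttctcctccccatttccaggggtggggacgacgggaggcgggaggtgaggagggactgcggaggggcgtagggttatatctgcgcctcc

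The motifs searched were TTNNGCAA for C/EBP, TGANTCA for AP-1, TGACGTCA for CRE, GGGCGG for the GC box, GGAATG for TEAD, TATAAA for the TATA box, CACGTG for the E box and CCAAT for the box of that name. The *Lamb1* window held 2 GC boxes, at 84 and 75 bases before the start, and 1 CCAAT box at 187 bases before it. The *Lamb2* window held none of the motifs. The *Nid1* window held 1 C/EBP match at 235 bases, 1 TEAD match at 165 bases, 1 CCAAT box at 91 bases and 1 GC box at 67 bases before the start. No capitals of different motifs overlapped. Among all 32851 promoters of the RefSeq table, a GC box was present in 35.7%, a CCAAT box in 37.4%, a TEAD match in 14.7% and a C/EBP match in 10.8%. A promoter was listed for 32 of the 52 genes, and a gene was counted if any of its listed promoters held the motif. By gene, 21 held a GC box, 13 a CCAAT box, 6 a C/EBP match, 7 a TATA box, 4 a TEAD match, 3 an AP-1 match, 1 an E box and 0 a CRE. The shares over all promoters for these last motifs were 13.6% for the TATA box, 7.81% for AP-1, 7.15% for the E box and 1.79% for CRE. All of these shares count single promoters, 32851 for 27025 symbols, so they are not on the same basis as the gene counts. A match is a run of letters and not a measured binding site.

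The libraries held between 17198448 and 22986362 mapped reads, as implied by the deposited RPKM values. The Ad-Cre library at day 2 stood apart. Its deposited counts summed to 87.8% of its mapped reads, against 96.1% to 99.4% in the other libraries, and its ratios to Ad-GFP at day 2 and to Ad-Cre at day 0 fell with transcript length. The whole *Mll4* transcript (*Kmt2d*) had 6304 reads at day 0 and 8530 at day 2 with Ad-GFP, and 6316 and 5595 with Ad-Cre. Such a count does not separate the floxed exons from the rest, so the deletion could not be checked and each library carries the name its label gives. Reads on the *Mll3* transcript (*Kmt2c*), the gene the labels give as knocked out throughout, were 522 at day 0 and 1224 at day 2 with Ad-GFP, and 463 and 451 with Ad-Cre, or 1.41 to 3.17 RPKM. All 6 adipocyte markers examined were up by over 2.5-fold at day 2 in both Ad-GFP and Ad-Cre cells, and 6 of 6 were over 2.5-fold lower with Ad-Cre than with Ad-GFP at day 2. Of markers of other cell types, 0 of 6 endothelial and 0 of 4 epithelial genes were expressed, and *Ptprc* and *Adgre1* (macrophage) and *Myog* (muscle) had no read in any library. Of 5 macrophage markers *Cd14* alone was expressed, and the 5 summed to between 0.487 and 2.77 RPKM. Of 6 muscle markers *Acta1*, the skeletal alpha-actin, alone was expressed, with 18.4 RPKM at day 0 and 0.364 at day 2 with Ad-GFP, and 48.5 and 3.41 with Ad-Cre. *Acta1* was thus over 2.5-fold lower at day 2 in both Ad-GFP and Ad-Cre cells and over 2.5-fold higher with Ad-Cre on both days, and its part in the matrix differences was not tested.

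The RPKM values of the 52 genes summed to 5000.1 at day 0 and 1915 at day 2 with Ad-GFP, and to 6065 and 2439.6 with Ad-Cre. The interstitial genes carried this difference, at 4253 and 1037 with Ad-GFP and 5350.0 and 1837 with Ad-Cre. The basement membrane genes summed to 489 and 748 with Ad-GFP and to 495 and 400.1 with Ad-Cre. These sums carry no correction for transcript length, under which 6 of the 9 expressed basement membrane genes were higher at day 2 than at day 0 in Ad-Cre cells, against 3 of 9 without it. *Bgn* ranked 2 among all genes by RPKM at day 0 in both Ad-GFP and Ad-Cre cells. Among the 100 most abundant genes were *Fn1*, *Fbln2*, *Sparc* and *Bgn* in Ad-GFP cells at day 0 and *Fn1*, *Tnc*, *Thbs1*, *Sparc* and *Bgn* in Ad-Cre cells at day 0, but *Bgn* alone in Ad-GFP cells and *Sparc* and *Bgn* in Ad-Cre cells at day 2. In RNA from a whole dish, fewer cells of a type and less RNA per cell cannot be told apart.

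**Figure D1:**
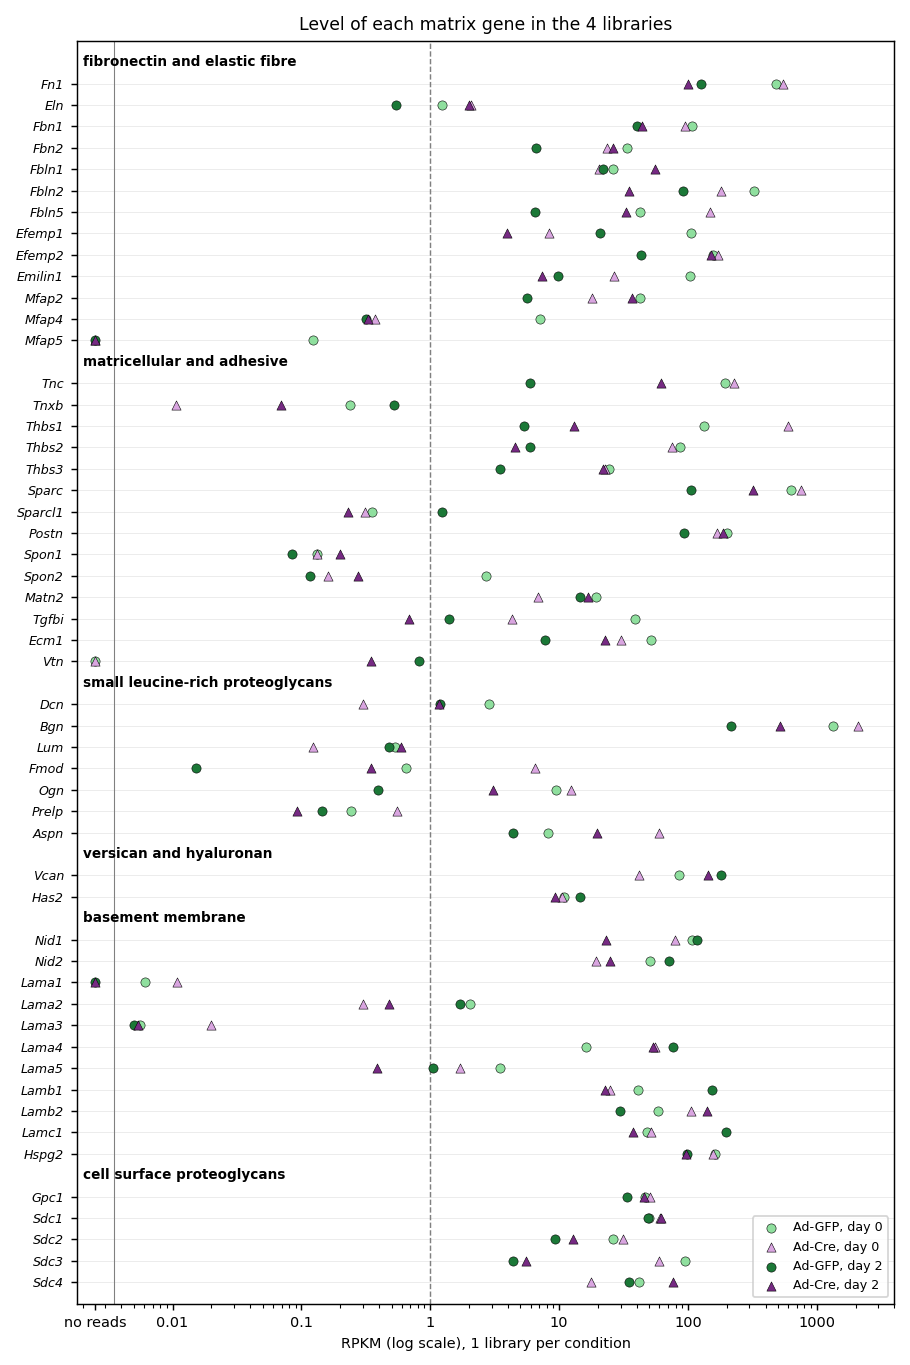
RPKM of each of the 52 genes (log scale) in the 4 libraries, 1 point per library, grouped by role, with the dashed line at an RPKM of 1 and genes without reads at the left edge. Most interstitial genes have their day 0 points to the right of their day 2 points, and *Lama4*, *Lamb1* and *Lamc1* have their Ad-GFP day 2 point at the right.

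From day 0 to day 2 in Ad-GFP cells, 23 of the 43 expressed genes were over 2.5-fold lower, against 12.7% of all 11537 expressed genes, and 4 were over 2.5-fold higher, against 8.37%. The lower genes were 20 of 29 interstitial genes, 1 of 9 basement membrane genes (*Lama5*) and 2 of 5 cell surface genes (*Sdc2* and *Sdc3*). The higher genes were *Lama4*, *Lamb1* and *Lamc1* of the basement membrane and *Sparcl1* of the interstitial matrix. Of the lower genes, *Mfap4*, *Spon2* and *Ogn* passed the threshold only through Ad-GFP at day 0, where they are high. *Sparcl1* passed only through Ad-GFP at day 2, so the calls of these genes were in part built in. The median log2 ratio was −2.35 over the interstitial and 0.15 over the basement membrane genes, against 0.15 over all expressed genes. With edgeR's TMM scaling the basement membrane median was 0.0015 and that over all expressed genes −0.0025.

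In Ad-Cre cells over the same days, 14 of the 43 genes were over 2.5-fold lower, against 10.0% of all expressed genes, and 4 were higher, against 8.67%. The lower genes were 11 interstitial genes, the basement membrane genes *Nid1* and *Lama5*, and *Sdc3*. *Fbln1*, *Dcn*, *Vcan* and *Sdc4* were higher. The median log2 ratio was −0.43 over the interstitial and −0.14 over the basement membrane genes, and the latter turned to 0.37 once each ratio was divided by its trend over transcript length, taken as the medians of 20 bins of length over all expressed genes. After that division *Tnc* and *Nid1* were within 2.5-fold, *Sparc* was over 2.5-fold lower, and *Matn2* and *Lama2* were over 2.5-fold higher. The comparisons within Ad-GFP cells, within Ad-Cre cells and between them share libraries, so each is given with its own values.

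Before induction, at day 0, Ad-Cre cells had 4 genes over 2.5-fold higher than Ad-GFP cells, against 1.27% of all expressed genes, and 9 lower, against 4.12%. *Fbln5*, *Thbs1*, *Aspn* and *Lama4* were higher, and *Efemp1*, *Emilin1*, *Mfap4*, *Spon2*, *Matn2*, *Tgfbi*, *Dcn*, *Nid2* and *Lama2* were lower. *Mfap4* and *Spon2* passed the threshold only through the Ad-GFP library at day 0, where they are high. With a threshold on the mean RPKM of the 4 libraries instead, 5 of 42 genes were higher, against 1.48%, and 8 lower, against 3.01%. The medians were −0.22 over the interstitial and −0.44 over the basement membrane genes. The preadipocyte markers *Pdgfra*, *Dlk1*, *Ly6a* and *Cd34*, 4 of the 5 examined, were over 2.5-fold lower in the Ad-Cre library at day 0, and *Pdgfrb* was not. The 5 markers summed to 325 RPKM at day 0 and 105 at day 2 with Ad-GFP, and to 144 and 69.9 with Ad-Cre, and their part in these differences was not tested.

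At day 2, 13 genes were over 2.5-fold higher with Ad-Cre than with Ad-GFP, against 8.15% of all expressed genes, and 9 were lower, against 10.1%. The higher genes were *Lamb2* and 12 of 29 interstitial genes (*Eln*, *Fbn2*, *Fbln1*, *Fbln5*, *Efemp2*, *Mfap2*, *Tnc*, *Thbs3*, *Sparc*, *Ecm1*, *Ogn* and *Aspn*). Of the 9 lower genes, 6 were among the 9 expressed basement membrane genes (*Nid1*, *Nid2*, *Lama2*, *Lama5*, *Lamb1* and *Lamc1*), and the others were *Fbln2*, *Efemp1* and *Sparcl1*, of which *Sparcl1* passed the threshold only through Ad-GFP at day 2. With the threshold on the mean RPKM, 14 of 42 genes were higher, against 8.44%, and 8 lower, against 9.22%. With TMM scaling 16 of 43 were higher and 7 lower, and after division by the length trend 15 and 5. The shares of all expressed genes above belong to the ratios before these scalings and do not apply to these counts. The median log2 ratio was 1.22 over the interstitial and −1.53 over the basement membrane genes, against −0.16 over all expressed genes, which TMM scaling moved to 0.02. The adipocyte markers summed to 30.4 RPKM at day 0 and 1999 at day 2 with Ad-GFP, and to 15.7 and 490.4 with Ad-Cre, and their part in the matrix differences was not tested.

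**Figure D2:**
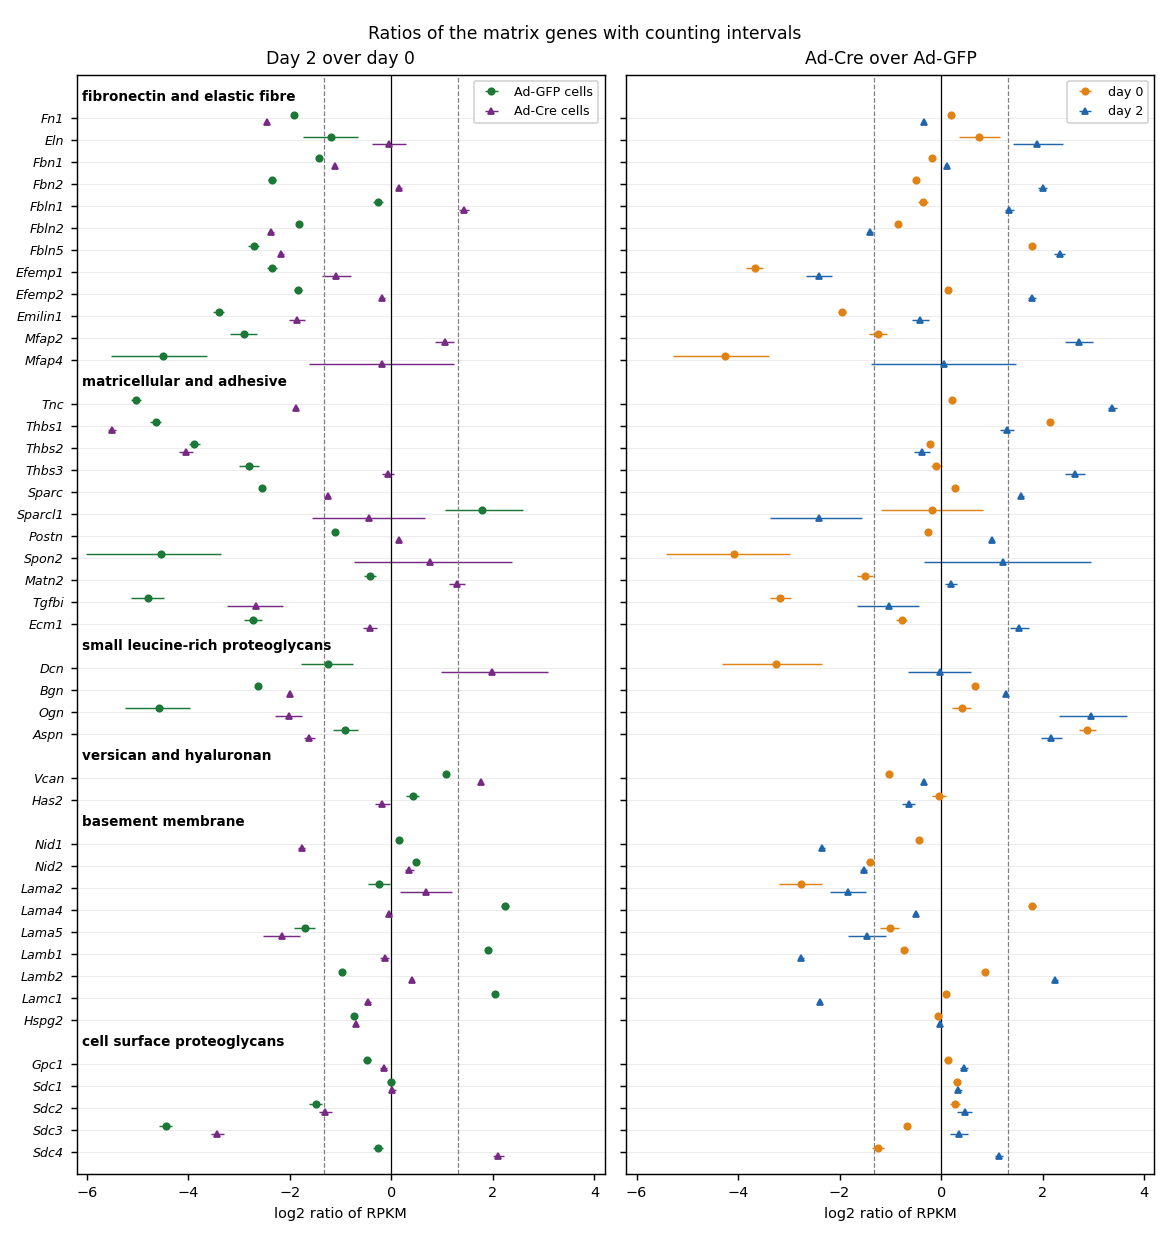
Log2 ratios of RPKM of the 43 expressed genes with exact binomial 95% intervals (bars, counting error only), day 2 over day 0 at the left in Ad-GFP (circles) and Ad-Cre cells (triangles), and Ad-Cre over Ad-GFP at the right at day 0 (circles) and day 2 (triangles), with dashed lines at 2.5-fold. At the left, the Ad-GFP points of most interstitial genes lie beyond the lower line, and at the right the day 2 points run from *Lamb1* (−2.77) to *Tnc* (3.37).

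*Fn1* encodes fibronectin, the adhesive glycoprotein on which other matrix fibres assemble. It had 68531 reads (479 RPKM) at day 0 and 24099 (126) at day 2 with Ad-GFP, and 89151 (549.7) and 15021 (100.2) with Ad-Cre. From day 0 to day 2 the log2 ratio was −1.93 (95% interval −1.95 to −1.91) in Ad-GFP and −2.46 (95% interval −2.48 to −2.43) in Ad-Cre cells. Both day 0 libraries were thus above both day 2 libraries, and the Ad-Cre to Ad-GFP log2 ratio was within 2.5-fold at day 0 (0.20) and at day 2 (−0.33, or 0.46 after division by the length trend).

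The fibrillins form the microfibrils on which elastin is laid down. *Fbn1* had 18406 reads (108 RPKM) at day 0 and 9187 (40.4) at day 2 with Ad-GFP, and 18377 (95.1) and 7817 (43.8) with Ad-Cre. *Fbn2*, the fibrillin of developing tissue, had 6007 reads (33.3 RPKM) at day 0 and 1580 (6.56) at day 2 with Ad-GFP, and 4850 (23.7) and 4952 (26.2) with Ad-Cre. The day 2 to day 0 log2 ratio of *Fbn2* was −2.35 (95% interval −2.43 to −2.27) in Ad-GFP and 0.14 (95% interval 0.09 to 0.20) in Ad-Cre cells, so that only its Ad-GFP library at day 2 was low. For *Fbn1* it was −1.42 and −1.12 (−0.45 after division by the length trend), and both day 2 libraries were low by RPKM. An antisense annotation overlaps *Fbn1*. Of the 50-base windows of its transcript, 20.1% also match another annotated gene on either strand. Whether reads there were parted by strand was not given in the sources used here.

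*Mfap2* and *Mfap4* encode proteins attached to microfibrils. *Mfap2* had 785 reads (42.3 RPKM) at day 0 and 140 (5.64) at day 2 with Ad-GFP, and 376 (17.8) and 719 (36.9) with Ad-Cre. Day 2 over day 0, the log2 ratio was −2.91 (95% interval −3.18 to −2.64) in Ad-GFP and 1.05 (95% interval 0.87 to 1.23) in Ad-Cre cells, and at day 2 *Mfap2* was 6.55-fold higher in Ad-Cre cells. Its transcript is short (1080 bases). That day 2 log2 ratio, 2.71, was 2.32 after division by the length trend and 1.76 after division by length and GC trends. The Ad-Cre change from day 0 to day 2 was 0.42 and 0.09 after these divisions. *Mfap4* was high in 1 library alone, with 186 reads (7.15 RPKM) at day 0 and 11 (0.316) at day 2 with Ad-GFP, and 11 (0.373) and 9 (0.330) with Ad-Cre. It overlaps *Mapk7* on the opposite strand, and 2.39% of its windows are shared. *Eln*, elastin itself, was low throughout, with 80 reads (1.23 RPKM) at day 0 and 47 (0.541) at day 2 with Ad-GFP, and 153 (2.07) and 137 (2.01) with Ad-Cre.

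The fibulins and *Emilin1* help elastin and microfibrils to assemble. *Fbln5*, which binds elastin and cell surface integrins, had 4281 reads (42.7 RPKM) at day 0 and 873 (6.52) at day 2 with Ad-GFP, and 16797 (148) and 3458 (32.9) with Ad-Cre. It was higher with Ad-Cre than with Ad-GFP on both days, with log2 ratios of 1.79 (95% interval 1.74 to 1.84) and 2.34 (95% interval 2.23 to 2.44), and lower at day 2 than at day 0 in each. *Efemp1* (fibulin-3) went the other way between the cells, with 3728 reads (106 RPKM) at day 0 and 979 (20.9) at day 2 with Ad-GFP, and 332 (8.36) and 145 (3.95) with Ad-Cre. It was 12.7-fold lower in Ad-Cre cells at day 0 and 5.30-fold lower at day 2. *Efemp2* (fibulin-4), needed for elastic fibres, had 4795 reads (155 RPKM) at day 0 and 1798 (43.5) at day 2 with Ad-GFP, and 6001 (171) and 4864 (150.1) with Ad-Cre, and only the Ad-GFP library at day 2 was low.

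*Fbln1* had 1512 reads (26.2 RPKM) at day 0 and 1678 (21.7) at day 2 with Ad-GFP, and 1337 (20.4) and 3330 (55.0) with Ad-Cre. The single high library was Ad-Cre at day 2, at a log2 ratio to Ad-GFP of 1.34 (95% interval 1.25 to 1.42), just past 2.5-fold. *Fbln2*, which also binds basement membranes, had 25036 reads (325 RPKM) at day 0 and 9479 (92.1) at day 2 with Ad-GFP, and 15783 (181) and 2815 (34.9) with Ad-Cre. It was over 2.5-fold lower at day 2 than at day 0 in both Ad-GFP and Ad-Cre cells, and its day 2 Ad-Cre to Ad-GFP log2 ratio was −1.40, which became −0.92 after division by the length trend and −1.22 with TMM scaling, both within 2.5-fold, and −1.37 after division by length and GC trends, past it. *Emilin1* had 6145 reads (103 RPKM) at day 0 and 775 (9.73) at day 2 with Ad-GFP, and 1790 (26.5) and 457 (7.32) with Ad-Cre. Its Ad-GFP library at day 0 was the high value, 3.89-fold above the Ad-Cre library.

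The matricellular proteins sit in the matrix and modulate adhesion more than they build fibres. *Tnc*, tenascin-C (NM_011607, chromosome 4, 63620819 to 63681760, minus strand in NCBI37/mm9), had 23625 reads (193 RPKM) at day 0 and 965 (5.91) at day 2 with Ad-GFP, and 31267 (226) and 7849 (61.3) with Ad-Cre. From day 0 to day 2 it was 32.7-fold lower in Ad-GFP and 3.68-fold lower in Ad-Cre cells. After division by the length trend the Ad-Cre log2 ratio was −1.26, within 2.5-fold. Between the cells, Ad-Cre over Ad-GFP, the log2 ratio was 0.22 (95% interval 0.20 to 0.25) at day 0 and 3.37 (95% interval 3.28 to 3.47) at day 2, and the latter was 4.11 after division by the length trend. *Tnc* was thus near level between the cells at day 0 and 10.4-fold higher in Ad-Cre cells at day 2.

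The thrombospondins bind growth factors and cell surface receptors. *Thbs1*, an activator of latent TGF-beta, had 13362 reads (134 RPKM) at day 0 and 714 (5.35) at day 2 with Ad-GFP, and 67311 (595) and 1374 (13.1) with Ad-Cre. It was 4.44-fold higher with Ad-Cre than with Ad-GFP at day 0, a log2 ratio of 2.15 (95% interval 2.12 to 2.18), and from day 0 to day 2 it was 25.0-fold lower in Ad-GFP and 45.3-fold lower in Ad-Cre cells. *Thbs2*, the closest relative of *Thbs1*, had 8854 reads (86.9 RPKM) at day 0 and 804 (5.91) at day 2 with Ad-GFP, and 8632 (74.7) and 485 (4.54) with Ad-Cre. Its day 2 libraries were low in both cells, with log2 ratios to day 0 of −3.88 and −4.04. *Thbs3*, of the pentameric thrombospondins, had 1334 reads (24.4 RPKM) at day 0 and 255 (3.49) at day 2 with Ad-GFP, and 1412 (22.7) and 1247 (21.7) with Ad-Cre, and its low library was that of Ad-GFP cells at day 2. *Thbs3* overlaps *Mtx1* on the opposite strand, but 0% of its 50-base windows are shared with another annotated gene. Whether counting used the strand was not given in the sources used here.

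Summed over the 3 genes, thrombospondin RPKM was 245 at day 0 and 14.7 at day 2 with Ad-GFP, and 692 and 39.4 with Ad-Cre. *Thbs1* made up 54.6% and 85.9% of these sums at day 0. At day 2 *Thbs2* had the largest share in Ad-GFP cells (40.1%) and *Thbs3* in Ad-Cre cells (55.1%).

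*Sparc*, a collagen-binding glycoprotein of remodelled matrix, had 24704 reads (625 RPKM) at day 0 and 5623 (106) at day 2 with Ad-GFP, and 33830 (754) and 13180 (318) with Ad-Cre. Its log2 ratio of day 2 to day 0 was −2.55 (95% interval −2.60 to −2.51) in Ad-GFP and −1.25 (95% interval −1.28 to −1.22) in Ad-Cre cells, and at day 2 it was 2.99-fold higher in Ad-Cre cells. *Postn* (periostin) had 11066 reads (200.2 RPKM) at day 0 and 6858 (92.8) at day 2 with Ad-GFP, and 10493 (167) and 10755 (186) with Ad-Cre, with the low value in Ad-GFP cells at day 2 and all of its ratios within 2.5-fold. *Ecm1* had 1679 reads (51.5 RPKM) at day 0 and 339 (7.78) at day 2 with Ad-GFP, and 1112 (30.1) and 770 (22.5) with Ad-Cre, again lowest in Ad-GFP cells at day 2. *Tgfbi*, an adhesive protein induced by TGF-beta, was high in 1 library, with 1791 reads (38.9 RPKM) at day 0 and 86 (1.40) at day 2 with Ad-GFP, and 226 (4.33) and 33 (0.683) with Ad-Cre. It was 8.99-fold lower with Ad-Cre than with Ad-GFP at day 0.

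*Matn2* (matrilin-2), an adaptor between matrix filaments, had 1175 reads (19.4 RPKM) at day 0 and 1180 (14.6) at day 2 with Ad-GFP, and 470 (6.85) and 1059 (16.7) with Ad-Cre, with the Ad-Cre library at day 0 below the other libraries. *Spon2* was above an RPKM of 1 in Ad-GFP cells at day 0 alone, with 104 reads (2.70 RPKM) at day 0 and 6 (0.117) at day 2 with Ad-GFP, and 7 (0.160) and 11 (0.273) with Ad-Cre. *Sparcl1*, a relative of *Sparc*, had 13 to 88 reads, and its Ad-GFP library at day 2 (1.23 RPKM) was the high value. *Tnxb*, tenascin-X, did not pass the RPKM threshold and had 39 reads (0.237 RPKM) at day 0 and 115 (0.523) at day 2 with Ad-GFP, and 2 (0.0107) and 12 (0.0695) with Ad-Cre, with both Ad-Cre libraries below both Ad-GFP libraries.

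The small leucine-rich proteoglycans coat collagen fibrils. *Bgn* (biglycan, NM_007542, chromosome X, 70728941 to 70741272, plus strand) was the most abundant of the 52 genes in every library, with 54508 reads (1327 RPKM) at day 0 and 11804 (215) at day 2 with Ad-GFP, and 97566 (2093) and 22498 (522) with Ad-Cre. The log2 ratio of day 2 to day 0 was −2.63 (95% interval −2.65 to −2.60) in Ad-GFP and −2.00 (95% interval −2.02 to −1.98) in Ad-Cre cells, so both day 2 libraries were low. At day 2 it was 2.43-fold higher in Ad-Cre cells, just under 2.5-fold. *Dcn* (decorin), the nearest relative of *Bgn*, had 11 to 93 reads, with 2.87 RPKM at day 0 and 1.20 at day 2 with Ad-GFP, and 0.299 and 1.18 with Ad-Cre.

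*Aspn* (asporin) and *Ogn* (osteoglycin) lie near each other on chromosome 13, and both were over 2.5-fold higher with Ad-Cre than with Ad-GFP at day 2. Both overlap *Cenpp* on the opposite strand, with 0% of their windows shared. *Aspn* had 330 reads (8.16 RPKM) at day 0 and 235 (4.35) at day 2 with Ad-GFP, and 2745 (59.8) and 829 (19.6) with Ad-Cre. Ad-Cre over Ad-GFP, the log2 ratios were 2.87 (95% interval 2.71 to 3.04) at day 0 and 2.17 (95% interval 1.96 to 2.38) at day 2. *Ogn* had 412 reads (9.43 RPKM) at day 0 and 23 (0.394) at day 2 with Ad-GFP, and 617 (12.4) and 140 (3.06) with Ad-Cre, a log2 ratio of 0.40 (95% interval 0.22 to 0.58) at day 0 and 2.96 (95% interval 2.31 to 3.66) at day 2. *Fmod* (fibromodulin) did not pass the threshold, which reads Ad-GFP cells alone, but had 32 reads (0.651 RPKM) at day 0 and 1 (0.0152) at day 2 with Ad-GFP, and 363 (6.51) and 18 (0.349) with Ad-Cre, so its high library was Ad-Cre at day 0.

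*Lum* and *Prelp*, of the same family, reached at most 0.588 and 0.555 RPKM in any library, and *Spon1* and *Mfap5* of the other interstitial genes 0.198 and 0.124. *Vtn* (vitronectin) had 0 reads in both day 0 libraries, and at day 2 it had 33 reads with Ad-GFP and 11 with Ad-Cre. Against a floor of 3 reads per library, it was at least 8.23-fold higher at day 2 in Ad-GFP and at least 3.97-fold higher in Ad-Cre cells.

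*Vcan* encodes versican, a large chondroitin sulfate proteoglycan that binds hyaluronan, and unlike most interstitial genes it was higher at day 2 in both Ad-GFP and Ad-Cre cells. Its longest transcript (NM_001081249, chromosome 13, 89794915 to 89882117, minus strand in NCBI37/mm9) had 18361 reads (85.9 RPKM) at day 0 and 51426 (180.0) at day 2 with Ad-GFP, and 10171 (41.9) and 31813 (142) with Ad-Cre. The change from day 0 was 1.07 (95% interval 1.04 to 1.09) on the log2 scale in Ad-GFP and 1.76 (95% interval 1.73 to 1.79) in Ad-Cre cells, and both day 2 libraries were the high ones. *Has2*, which makes hyaluronan, had 10.8 RPKM at day 0 and 14.5 at day 2 with Ad-GFP, and 10.5 and 9.28 with Ad-Cre, all within 2.5-fold of each other.

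The forms of versican differ by 2 large exons that carry its glycosaminoglycan chains, so reads on each exon could be taken as differences between the listed transcripts. The GAG-alpha exon has 2880 bases (chr13:89842523-89845402) and the GAG-beta exon 5217 bases (chr13:89827890-89833106, both minus strand in NCBI37/mm9), and the form with neither of them (NM_001134475) has 4335 bases, which the forms with these exons also hold, so its reads can come from any of these forms. A further listed form of 3745 bases (NM_172955) was not used. It had 26.7 RPKM at day 0 and 45.2 at day 2 with Ad-GFP, and 12.5 and 37.6 with Ad-Cre. It was thus lower with Ad-Cre on both days, whereas the exons of the form with neither were higher with Ad-Cre at day 2. The level of the GAG-alpha exon was, relative to the exons of the form with neither, 55.6% on both days with Ad-GFP, and 44.6% at day 0 and 24.6% at day 2 with Ad-Cre. The level of the GAG-beta exon was 137% and 153% with Ad-GFP, and 136% and 53.9% with Ad-Cre. Some of these levels exceed 100%, so they cannot be read as shares of the versican forms. The Ad-Cre library at day 2 was the low one for both exons. Its log2 ratio to Ad-GFP cells at day 2 was −0.70 for the GAG-alpha exon, −1.02 for the GAG-beta exon and 0.48 for the exons of the form with neither. This library had fewer reads on long transcripts in general, and the part of that difference in the exon levels was not tested.

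**Figure D3:**
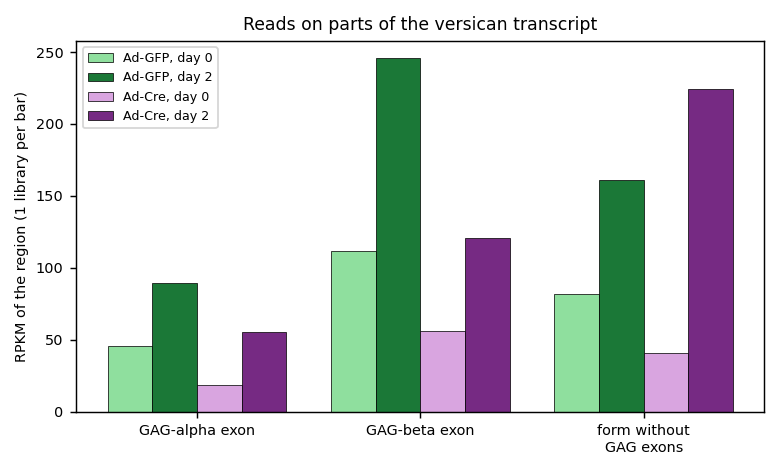
RPKM of the GAG-alpha exon, the GAG-beta exon and the shared exons, 1 library per bar and no error bar. The shared exons are those of the versican form with neither exon, and the forms with these exons also hold them. In Ad-Cre cells at day 2 the shared exons are at 225 RPKM and the GAG-beta exon at 121. In Ad-GFP cells at day 2 the GAG-beta exon (246) is above the shared exons (161).

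Of the basement membrane genes, the laminin chains *Lama4*, *Lamb1* and *Lamc1* were the ones higher at day 2 in Ad-GFP cells. *Lama4* (NM_010681, chromosome 10, 38685321 to 38829994, plus strand), the alpha chain known from adipocyte, muscle and vessel basement membranes, had 1673 reads (16.1 RPKM) at day 0 and 10591 (76.2) at day 2 with Ad-GFP, and 6520 (55.3) and 5865 (53.8) with Ad-Cre. Its log2 ratio of day 2 to day 0 was 2.24 (95% interval 2.17 to 2.32) in Ad-GFP and −0.04 (95% interval −0.09 to 0.01) in Ad-Cre cells. The low library was Ad-GFP at day 0, and Ad-Cre cells were 3.44-fold higher at that day, a log2 ratio of 1.78 (95% interval 1.70 to 1.86). At day 2 the Ad-Cre to Ad-GFP log2 ratio was −0.50, and 0.17 after division by the length trend.

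*Lamb1* (NM_008482, chromosome 12, 31950099 to 32014509, plus strand), the beta chain of most embryonic laminins, had 4092 reads (41.2 RPKM) at day 0 and 20476 (154) at day 2 with Ad-GFP, and 2807 (24.9) and 2362 (22.7) with Ad-Cre. It was 3.74-fold higher from day 0 to day 2 with Ad-GFP, and its log2 ratio was −0.14 (95% interval −0.21 to −0.06) in Ad-Cre cells. *Lamc1* (NM_010683, chromosome 1, 155066052 to 155179916, minus strand), the gamma chain shared by most laminins, had 6314 reads (48.2 RPKM) at day 0 and 34578 (197) at day 2 with Ad-GFP, and 7672 (51.6) and 5148 (37.5) with Ad-Cre. It was 4.10-fold higher at day 2 in Ad-GFP cells, and its log2 ratio was −0.46 (95% interval −0.51 to −0.41) in Ad-Cre cells. For both chains the Ad-GFP library at day 2 was high and the other libraries were low, at an Ad-Cre to Ad-GFP log2 ratio of −2.77 for *Lamb1* and −2.40 for *Lamc1*, or −2.11 and −1.63 after division by the length trend. *Lamb1* overlaps the antisense annotation *Gm11053*, with 0% of its windows shared.

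*Lamb2* (NM_008483, chromosome 9, 108382193 to 108392861, plus strand), the beta chain of muscle, kidney and nerve laminins, went the other way, with 5630 reads (58.2 RPKM) at day 0 and 3851 (29.8) at day 2 with Ad-GFP, and 11679 (106) and 14327 (141) with Ad-Cre. It was 4.74-fold higher with Ad-Cre than with Ad-GFP at day 2, a log2 ratio of 2.25 (95% interval 2.19 to 2.30), and 0.87 at day 0. The ratio of *Lamb1* to *Lamb2* by RPKM was 0.707 at day 0 and 5.18 at day 2 with Ad-GFP, and 0.234 and 0.160 with Ad-Cre. As a share of laminin beta RPKM, *Lamb1* made up 41.4% and 83.8% with Ad-GFP, and 19.0% and 13.8% with Ad-Cre. The 2 transcripts have 5778 and 5624 bases, so a trend over length bears alike on both.

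**Figure D4:**
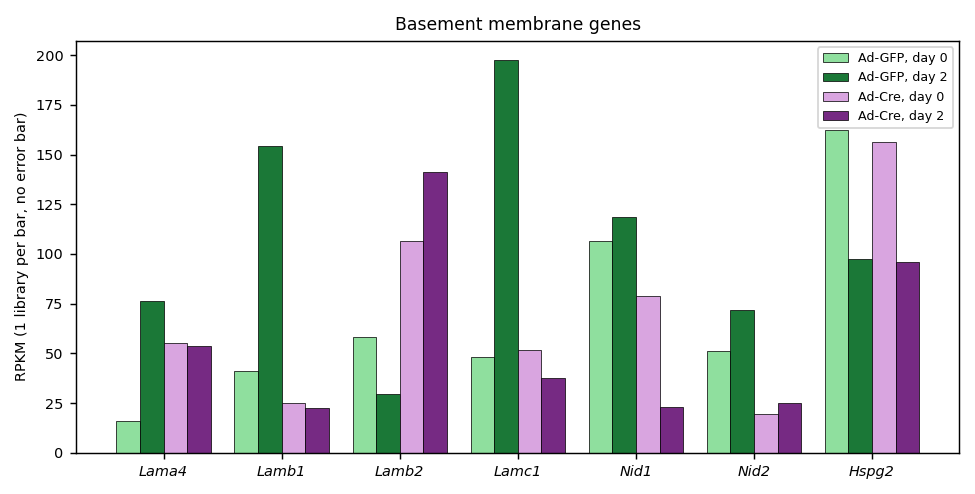
RPKM of the 7 basement membrane genes above 10 RPKM in each library (1 library per bar, no error bar). The Ad-GFP bars at day 2 stand out for *Lamb1* (154) and *Lamc1* (197), the Ad-Cre bar at day 2 for *Lamb2* (141), and the Ad-Cre bar at day 2 is low for *Nid1* (23.2).

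Among the alpha chains, *Lama4* made up 74.5% of the RPKM in Ad-GFP cells at day 0 and 96.4% to 98.4% in the other libraries. *Lama5*, widespread in epithelia, had 675 reads (3.45 RPKM) at day 0 and 276 (1.05) at day 2 with Ad-GFP, and 380 (1.71) and 79 (0.385) with Ad-Cre, and was lower at day 2 in both cells. *Lama2*, the chain of muscle laminin, had 340 reads (2.04 RPKM) at day 0 and 382 (1.71) at day 2 with Ad-GFP, and 57 (0.301) and 84 (0.480) with Ad-Cre, and both Ad-Cre libraries were below both Ad-GFP libraries. Ad-Cre over Ad-GFP, its log2 ratio was −2.76 (95% interval −3.19 to −2.35) at day 0 and −1.83 (95% interval −2.19 to −1.49) at day 2. *Lama1* and *Lama3*, the chains of early embryo and skin, had 0 to 4 reads.

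The nidogens link laminin to type IV collagen. *Nid1* (NM_010917, chromosome 13, 13529869 to 13604542, plus strand) had 11090 reads (107 RPKM) at day 0 and 16463 (118) at day 2 with Ad-GFP, and 9306 (78.9) and 2527 (23.2) with Ad-Cre. Its day 2 to day 0 log2 ratio was 0.15 (95% interval 0.12 to 0.19) in Ad-GFP and −1.77 (95% interval −1.83 to −1.70) in Ad-Cre cells, and the Ad-Cre library at day 2 was the only low one, 5.11-fold lower than Ad-GFP. *Nid2* had 4294 reads (51.1 RPKM) at day 0 and 8045 (71.7) at day 2 with Ad-GFP, and 1853 (19.4) and 2191 (24.9) with Ad-Cre. Both of its Ad-Cre libraries were low, with log2 ratios to Ad-GFP of −1.39 (95% interval −1.47 to −1.32) at day 0 and −1.53 (95% interval −1.60 to −1.46) at day 2. Of the *Nid2* windows, 6.97% match another annotated gene on either strand, and an annotation on the other strand overlaps *Nid2*. *Hspg2* (perlecan), the main heparan sulfate proteoglycan of the basement membrane, had 39539 reads (162 RPKM) at day 0 and 31772 (97.5) at day 2 with Ad-GFP, and 43176 (156) and 24539 (96.0) with Ad-Cre, and before any correction for length Ad-GFP and Ad-Cre cells were within 1.04-fold of each other on each day.

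The basement membrane transcripts are long, and the Ad-Cre library at day 2 had fewer reads on long transcripts. Over all expressed genes, the median Ad-Cre to Ad-GFP log2 ratio at day 2 was 0.38 in the shortest and −0.68 in the longest of 5 equal groups of transcripts by length, whereas at day 0 it ran from −0.14 to 0.02. The 43 expressed genes had a median length of 3552 bases, against 2744 over all expressed genes, and 18 of them were in the longest group. After each ratio was divided by its trend over length, a correction listed gene by gene after the data were seen, 3 of 9 basement membrane genes remained over 2.5-fold lower in Ad-Cre cells at day 2 (*Nid1*, *Lamb1* and *Lamc1*). *Nid2* (−0.94), *Lama2* (−1.02) and *Lama5* (−0.64) did not, *Lamb2* (2.89) remained higher, and the median was −0.94. With GC content in the trend as well, *Lama5* (−1.48) was past 2.5-fold, and *Nid2* (−1.21) and *Lama2* (−0.97) were not. For *Hspg2* the length correction gave 0.79, and the length and GC correction −0.08. After the length correction all 12 interstitial genes called higher remained so, and *Thbs1* and *Bgn* passed 2.5-fold. After the length and GC correction *Efemp2* (1.10) and *Ecm1* (1.01) were within 2.5-fold. From day 0 to day 2 in Ad-Cre cells, the length-corrected log2 ratio was 0.79 for *Nid2*, 1.34 for *Lama2*, 0.50 for *Lama4*, 0.37 for *Lamb1*, 0.90 for *Lamb2* and 0.17 for *Lamc1*.

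**Figure D5:**
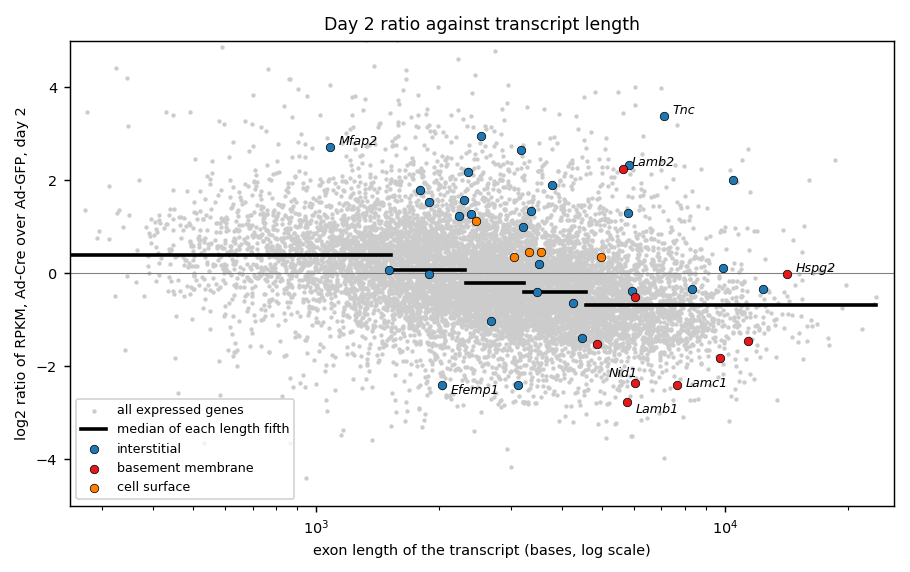
Log2 ratio of RPKM, Ad-Cre over Ad-GFP at day 2, against the exon length of the transcript (log scale) for expressed genes (grey), with the median of each of 5 groups by length (bars) and the matrix genes in colour by compartment, leaving 192 of 11472 genes outside the axes. The bars step down from 0.38 to −0.68, and *Lamb1*, *Lamc1* and *Nid1* lie below the last bar and *Tnc* and *Lamb2* above it.

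The cell surface proteoglycans carry heparan sulfate chains that bind matrix and growth factors. *Sdc3*, a syndecan, had the largest difference, with 8101 reads (94.7 RPKM) at day 0 and 497 (4.35) at day 2 with Ad-GFP, and 5784 (59.6) and 497 (5.54) with Ad-Cre. It was 21.8-fold lower at day 2 in Ad-GFP and 10.8-fold lower in Ad-Cre cells, and both day 2 libraries were low. *Sdc4*, the syndecan of focal adhesions, had 1770 reads (41.8 RPKM) at day 0 and 1972 (34.9) at day 2 with Ad-GFP, and 851 (17.7) and 3388 (76.4) with Ad-Cre. Its log2 ratio of day 2 to day 0 was −0.26 (95% interval −0.36 to −0.17) in Ad-GFP and 2.11 (95% interval 2.00 to 2.22) in Ad-Cre cells. *Sdc2* had 1489 reads (26.1 RPKM) at day 0 and 708 (9.30) at day 2 with Ad-GFP, and 2037 (31.5) and 765 (12.8) with Ad-Cre, with both day 2 libraries low. *Sdc1* (49.5 RPKM at day 0 and 49.1 at day 2 with Ad-GFP, and 61.2 and 62.1 with Ad-Cre) and the glypican *Gpc1* (46.4 RPKM at day 0 and 33.4 at day 2 with Ad-GFP, and 50.6 and 45.5 with Ad-Cre) were within 2.5-fold in every comparison. *Sdc3* made up 44.7% of the syndecan RPKM at day 0 and 4.45% at day 2 with Ad-GFP, and 35.1% and 3.53% with Ad-Cre.

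Neighbouring gene groups were counted in the same way. Their counts and levels, here and below, carry no correction for transcript length, and the Ad-Cre library at day 2 had fewer reads on long transcripts. Over all expressed genes the shares higher and lower were 8.37% and 12.7% from day 0 to day 2 with Ad-GFP, 8.67% and 10.0% with Ad-Cre, 1.27% and 4.12% for Ad-Cre over Ad-GFP at day 0, and 8.15% and 10.1% at day 2. Of 5 expressed basement membrane collagens, 3 were over 2.5-fold higher and 0 lower from day 0 to day 2 with Ad-GFP, and 0 and 2 (*Col4a5* and *Col18a1*) with Ad-Cre. For Ad-Cre over Ad-GFP, 2 (*Col15a1* and *Col18a1*) were higher and 0 lower at day 0, and 0 higher and 3 (*Col4a5*, *Col15a1* and *Col18a1*) lower at day 2. *Col4a1* had 103 RPKM at day 0 and 469.9 at day 2 with Ad-GFP, and 194 and 237 with Ad-Cre, and *Col4a2* had 87.4 RPKM at day 0 and 370.4 at day 2 with Ad-GFP, and 179 and 230.4 with Ad-Cre. *Col15a1* had 2.55 RPKM at day 0 and 65.6 at day 2 with Ad-GFP, and 6.48 and 12.2 with Ad-Cre, and *Col18a1* 3.85 RPKM at day 0 and 4.31 at day 2 with Ad-GFP, and 11.3 and 1.41 with Ad-Cre. Like *Lamb1* and *Lamc1*, *Col4a1*, *Col4a2* and *Col15a1* had their high value in Ad-GFP cells at day 2.

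Of 17 expressed matrix receptors, 8 were over 2.5-fold lower and 1 higher from day 0 to day 2 with Ad-GFP (47.1% and 5.88%, against 12.7% and 8.37% of all expressed genes), and 9 lower and 0 higher with Ad-Cre. Between Ad-Cre and Ad-GFP cells, 2 were higher and 2 lower at day 0, and 3 higher and 2 lower at day 2. *Itga11*, a collagen receptor chain, had 2.21 RPKM at day 0 and 0.115 at day 2 with Ad-GFP, and 5.00 and 0.281 with Ad-Cre. *Itga9*, a receptor chain for tenascin-C, had 2.86 RPKM at day 0 and 0.273 at day 2 with Ad-GFP, and 4.99 and 4.29 with Ad-Cre, and its low library was that of Ad-GFP cells at day 2, as for *Tnc*. *Itga1*, a collagen and laminin receptor chain, had 1.29 RPKM at day 0 and 0.385 at day 2 with Ad-GFP, and 5.83 and 0.436 with Ad-Cre, and *Itgb3*, which pairs with the alpha V chain, 2.34 RPKM at day 0 and 0.279 at day 2 with Ad-GFP, and 3.92 and 0.355 with Ad-Cre.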

How the data were processed

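RNA-Seq of 4 libraries was analysed, Ad-GFP and Ad-Cre brown preadipocytes at day 0 and day 2 with 1 library each, and libraries were assigned to conditions from their labels. The authors aligned 50-base reads to NCBI37/mm9 and deposited the read count of each RefSeq transcript as a whole number. They also deposited its RPKM, the count divided by exon length and mapped reads. How reads with several matches, or their strand, were treated was not given in the sources used here. The submitters' processing notes also list bedtools 2.16 and SICER 1.1. Other libraries of the series were not analysed here.

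Symbols were matched for 97.8% of 29082 transcripts from a RefSeq table of GRCm38.p6, used for names alone. Gene coordinates came from GENCODE vM1 on NCBI37/mm9, and promoters from RefSeq on GRCm38.p6. After the study's methods, genes that passed 1 RPKM with Ad-GFP on either day were taken as expressed, and those past 2.5-fold were called. Ratios used the deposited RPKM without a pseudocount. Intervals are exact binomial ones at 95% (scipy 1.17.1) and cover counting error only. A floor of 3 reads corresponds to between 0.131 and 0.174 RPKM on a transcript of 1 kb. From edgeR 4.0.16 (R 4.3.3) only the TMM factors were taken. The remaining work was done in Python 3.11.15 with pandas 2.3.3, numpy 2.4.6 and matplotlib 3.10.9. Ratios, intervals and the length correction were tested on simulated data.

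Reads and RPKM in each library are given for the 12 matrix genes with most reads, and for those with at least 100 reads in 1 library whose interval lies past 2.5-fold in at least 1 comparison. Of each neighbouring list, at most 4 genes are named, those with the largest ratio among genes with at least 100 reads. The matrix genes and the lists were chosen with earlier results of these data known. The alternatives were the library total, TMM factors, the expression filter, a pseudocount of 1 RPKM, 2-fold and interval cutoffs, the mean of all transcripts, and division by trends over length or over length and GC content.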

Additional observations from a re-analysis of the deposited data

Results flagged for a closer look

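For 8 of the matrix genes, Ad-GFP and Ad-Cre cells differed in the sign of the change from day 0 to day 2, with both intervals apart from 0 and at least 1 of the changes over 2.5-fold. These are 18.6% of the 43 expressed matrix genes, and 422 of all 11537 expressed genes (3.66%) met the same conditions. The intervals narrow with more reads, so genes with few reads meet these conditions less easily, and the shares were not matched for reads. With 1 library per condition the difference was not tested. The log2 change in Ad-Cre cells minus that in Ad-GFP cells was 3.95 for *Mfap2*, 3.23 for *Dcn*, 2.49 for *Fbn2*, 2.37 for *Sdc4* and 1.70 for *Fbln1*, which moved up in Ad-Cre and down in Ad-GFP cells. It was −2.50 for *Lamc1*, −2.04 for *Lamb1* and −1.92 for *Nid1*, which moved down in Ad-Cre and up in Ad-GFP cells. After division by the length trend, the Ad-Cre change of *Lamb1* was 0.37 in place of −0.14 and that of *Lamc1* 0.17 in place of −0.46, so these genes then moved up in both, while for *Nid1* it was −1.23 in place of −1.77. The Ad-Cre change of *Mfap2*, a short transcript, was 0.42 in place of 1.05, and 0.09 after division by length and GC trends. That of *Fbn2*, a long one, was 0.81 in place of 0.14 after division by the length trend. The length-corrected Ad-Cre changes of *Dcn* (1.79), *Sdc4* (2.08) and *Fbln1* (1.58) stayed over 2.5-fold. The Ad-GFP change of *Nid1*, 0.15, was that of the median expressed gene, and was 0.0015 with TMM scaling. *Dcn* rests on 11 to 93 reads per library.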

How the results depend on the processing

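No gene called past 2.5-fold changed direction under the alternatives that alter a gene's ratio. The other cutoffs and expression filters leave the ratio as it is, so they could not change a gene's direction. The basement membrane medians of the changes from day 0 to day 2, which lay near 0, changed sign under some of the 10 alternatives. No paired analysis was possible because each condition has 1 library. Of the counts and medians of each comparison, 114 stayed and 30 moved, taking as stayed a count within 1.5 times and a median within the typical half-width of a gene's interval, 0.076 to 0.11 on the log2 scale. Of the single genes, 290 values stayed within their counting interval and 190 moved.

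From day 0 to day 2 in Ad-GFP cells, the interstitial median, −2.35 as reported, was −2.50 with TMM factors, −2.45 with a filter on the mean RPKM, −2.14 without a filter, −2.18 with 1 RPKM added, −2.51 after division by the length trend and −2.59 after division by length and GC trends. The basement membrane median, 0.15 as reported, was 0.0015 with TMM factors, −0.25 without a filter and 0.013 after division by the length trend. In Ad-Cre cells, 7 genes in place of 4 were higher without a filter, a count to which the shares over expressed genes do not apply. The added genes had few reads: *Tnxb* 2 at day 0 and 12 at day 2, *Vtn* 0 and 11, and *Lum* 5 and 22. The interstitial median in Ad-Cre cells, −0.43 as reported, was −0.26 with the total of the deposited counts, −1.10 with the mean filter, −0.59 after the length trend and −0.68 after length and GC trends. The basement membrane median, −0.14 as reported, was 0.043, 0.37 and 0.28 with the total of counts, the length trend and the length and GC trends, and −0.46 without a filter.

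Between Ad-Cre and Ad-GFP cells at day 0, the basement membrane median, −0.44 as reported, was −0.055 without a filter. At day 2, 5 genes in place of 9 were lower after division by the length trend, against 6.49% of all genes. The interstitial median, 1.22 as reported, was 1.41 with TMM factors, 1.36 with the total of counts, 1.00 without a filter, 0.97 with 1 RPKM added and 1.07 after length and GC trends. The basement membrane median, −1.53 as reported, was −1.34, −1.40, −0.87, −0.94 and −1.21 with TMM factors, the total of counts, 1 RPKM added, the length trend, and length and GC trends. Genes with few reads, such as *Dcn*, *Spon2* and *Mfap4*, have wide intervals, and without replicates the spread between cultures is unknown.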

Other observations

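Enzymes that build and edit the sugar chains of the proteoglycans were counted like the matrix genes. Of 28 expressed glycosaminoglycan enzymes, 2 were over 2.5-fold higher and 5 lower from day 0 to day 2 with Ad-GFP (7.14% and 17.9%, against 8.37% and 12.7% of all expressed genes), and 0 and 5 with Ad-Cre (0% and 17.9%, against 8.67% and 10.0%). Between Ad-Cre and Ad-GFP cells, 0 were higher and 1 lower at day 0 (against 1.27% and 4.12%), and 2 higher and 4 lower at day 2 (against 8.15% and 10.1%). The extracellular sulfatases, which remove sulfate from heparan sulfate, had opposite patterns: *Sulf1* had 19.1 RPKM at day 0 and 3.09 at day 2 with Ad-GFP, and 24.3 and 15.0 with Ad-Cre, and *Sulf2* had 13.5 RPKM at day 0 and 77.1 at day 2 with Ad-GFP, and 18.9 and 21.2 with Ad-Cre. *Chst11*, a chondroitin sulfotransferase, had 5.69 RPKM at day 0 and 32.6 at day 2 with Ad-GFP, and 4.28 and 6.04 with Ad-Cre, and *Hs6st2*, a heparan sulfate sulfotransferase, 30.0 RPKM at day 0 and 2.04 at day 2 with Ad-GFP, and 15.4 and 2.39 with Ad-Cre.

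Of 21 expressed genes in a list of further matrix proteins, 3 were over 2.5-fold higher and 8 lower from day 0 to day 2 with Ad-GFP (14.3% and 38.1%, against 8.37% and 12.7%), and 4 and 5 with Ad-Cre (19.0% and 23.8%, against 8.67% and 10.0%). In Ad-Cre against Ad-GFP cells, 2 were higher and 6 lower at day 0 (9.52% and 28.6%, against 1.27% and 4.12%), and 5 higher and 1 lower at day 2 (23.8% and 4.76%, against 8.15% and 10.1%). *Spp1* (osteopontin) had 35.2 RPKM at day 0 and 0.324 at day 2 with Ad-GFP, and 10.3 and 0.301 with Ad-Cre, and *Tinagl1*, a matrix protein of basement membranes, 17.3 RPKM at day 0 and 0.534 at day 2 with Ad-GFP, and 1.68 and 0.312 with Ad-Cre. *Smoc2*, a *Sparc* relative, had 57.3 RPKM at day 0 and 5.73 at day 2 with Ad-GFP, and 9.65 and 10.2 with Ad-Cre. *Comp*, a pentameric thrombospondin of cartilage, had 0.336 RPKM at day 0 and 0.251 at day 2 with Ad-GFP, and 0.0845 and 2.49 with Ad-Cre, with 109 reads in the last library.

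Of the 10 fibrillar collagens, all expressed, 1 was over 2.5-fold higher and 3 lower from day 0 to day 2 with Ad-GFP (against 8.37% and 12.7% of all expressed genes), and 2 and 4 with Ad-Cre (against 8.67% and 10.0%). For Ad-Cre over Ad-GFP, 1 was higher and 0 lower at day 0 (against 1.27% and 4.12%), and 3 higher and 0 lower at day 2 (against 8.15% and 10.1%). *Col1a1* had 1246 RPKM at day 0 and 65.8 at day 2 with Ad-GFP, and 1009.6 and 142 with Ad-Cre, and *Col1a2* 249 RPKM at day 0 and 22.5 at day 2 with Ad-GFP, and 403 and 109.9 with Ad-Cre. *Col2a1* had 2.22 RPKM at day 0 and 0.102 at day 2 with Ad-GFP, and 6.14 and 0.767 with Ad-Cre, and *Col27a1* 2.13 RPKM at day 0 and 1.11 at day 2 with Ad-GFP, and 3.42 and 10.1 with Ad-Cre. In each of these 4 genes the Ad-GFP library at day 2 was the lowest.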
